A study of Mus musculus with 8 samples.

Results

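The subcortical maternal complex genes and related maternal effect genes examined here were Nlrp5, Ooep, Padi6, Tle6, Khdc3, Zar1, Npm2, Mos, H1f8 and Nlrp14, 10 of the 20145 genes with a symbol on the array. They were chosen by name, and each was measured by every probe whose accession belongs to it in RefSeq, which gave 1 probe per gene. Ovarian RNA was compared between 3 arrays of wildtype mice and 5 arrays of mice with ovarian neoplasia, all cycling and 33 weeks of age. The neoplasia mice carried the genotype that the sample labels write as Pgrcre/+mPgrLsL/+ and the series design as Pgrcre/+PgrBLsL/+, that is, cre at the locus of the progesterone receptor together with a receptor allele behind a removable stop cassette. Cre is therefore made wherever Pgr is expressed in the body, not in 1 ovarian cell type. Whether the arrays stand for separate animals is not said in the labels, and the p-values below therefore measure only the spread between these samples, which may be technical. Their number limits the precision. Whole ovaries were extracted, and values were scaled within each array. Fewer oocytes, less RNA per oocyte and more RNA of other cells therefore cannot be told apart in any result here.

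Maternal effect genes are transcribed in the growing oocyte, and their products are stored and used by the early embryo before its own genome takes over. Nlrp5, Ooep, Tle6 and Khdc3 encode subunits of the subcortical maternal complex, a protein assembly beneath the oocyte surface. Padi6 encodes a protein of the cytoplasmic lattices, fibrous arrays that fill the oocyte and are linked with that complex. In the ovary these products are known chiefly from the oocyte.

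Upstream sequence was set beside the members because most of them moved together. RefSeq promoter windows (build GRCm38.p6) were available for 7 of the 10 members, as 9 windows that begin 250 bases before a transcript start. They include windows of Tle6 and Ooep, which were not called lower below, and none of Npm2, Mos or Nlrp14, which were. Nlrp5 and Tle6 each count more than once. The windows shown belong to Nlrp5 (chr7:23385639-23385888, plus strand), Padi6 (chr4:140742644-140742893, minus strand) and H1f8 (chr6:115944681-115944930, plus strand), as examples of a complex subunit, a lattice protein and a chromatin protein whose RNA differed strongly between the groups. Each lies upstream of the gene and is printed 5′ to 3′ on the strand of the gene. Capitals mark matches, on either strand, to the E box CANNTG, the letters read by basic helix-loop-helix factors such as Figla, and to the homeobox-type letters TAATTG or TAATTA or TGATTG.
Nlrp5: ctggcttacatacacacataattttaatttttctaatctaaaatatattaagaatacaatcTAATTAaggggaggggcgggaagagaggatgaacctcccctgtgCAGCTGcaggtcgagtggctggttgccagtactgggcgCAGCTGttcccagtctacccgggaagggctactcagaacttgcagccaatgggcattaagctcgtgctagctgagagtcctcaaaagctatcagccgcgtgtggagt
Padi6: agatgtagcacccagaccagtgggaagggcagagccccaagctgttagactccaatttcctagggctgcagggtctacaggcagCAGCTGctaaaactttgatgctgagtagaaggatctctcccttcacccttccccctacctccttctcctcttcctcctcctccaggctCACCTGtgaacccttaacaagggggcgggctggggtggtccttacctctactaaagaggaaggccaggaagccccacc
H1f8: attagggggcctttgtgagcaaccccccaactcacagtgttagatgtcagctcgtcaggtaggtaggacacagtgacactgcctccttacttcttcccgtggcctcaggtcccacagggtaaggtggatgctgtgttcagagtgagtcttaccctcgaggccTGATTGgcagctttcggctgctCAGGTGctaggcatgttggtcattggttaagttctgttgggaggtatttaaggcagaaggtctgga

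The E box letters stood in 9 of the 9 member windows, and in 66.2% of the 32851 windows of the same length in the RefSeq table. In the Nlrp5 window the 2 E boxes, both CAGCTG, lay 145 and 107 bases before the start. Padi6 had CAGCTG 166 bases and CACCTG 78 bases before its start. H1f8 had 1 E box, CAGGTG, 66 bases before the start. TGATTG was present in 2 member windows, 1 each of H1f8 and Tle6, against 12.7% of all windows. TAATTG was found in 1 member window, that of Ooep, and TAATTA in 1, that of Nlrp5, against 7.17% and 4.84% of all windows. The CCAAT box, which shares letters with TGATTG where that is followed by G, was found in 6 of the 9 member windows and in 33.85% of all windows. These matches describe letters and are not measured binding sites.

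RNA of 8 of the 10 members was lower in the neoplasias, that of none was higher, and that of Tle6 did not differ beyond its spread. The remaining member, Ooep, was too dim to be tested. A feature was tested where its probe was well above background on at least 3 arrays, and 9 of the 10 members passed. A gene above background on no neoplasia array could pass only with all 3 wildtype arrays above background. The direction of such genes was therefore largely set by the filter, here and in the lists below. Of all 25170 features tested, 13.5% were lower and 16.8% higher in the neoplasias at an adjusted p under 0.05 (limma, two-sided, Benjamini-Hochberg over all features), and 30.3% differed in either direction. The median log2 fold change, neoplasia over wildtype, was -5.98 over the 9 tested members and 0.13 over all features. The groups did not overlap for 8 members, with every neoplasia value below every wildtype value; over all features 16.1% showed that pattern, and 39.0% did not overlap in either direction. On the wildtype arrays 9, 10 and 10 members were well above background. On neoplasia 1 to 5 the numbers were 2, 5, 4, 4 and 5.

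**Figure D1:**
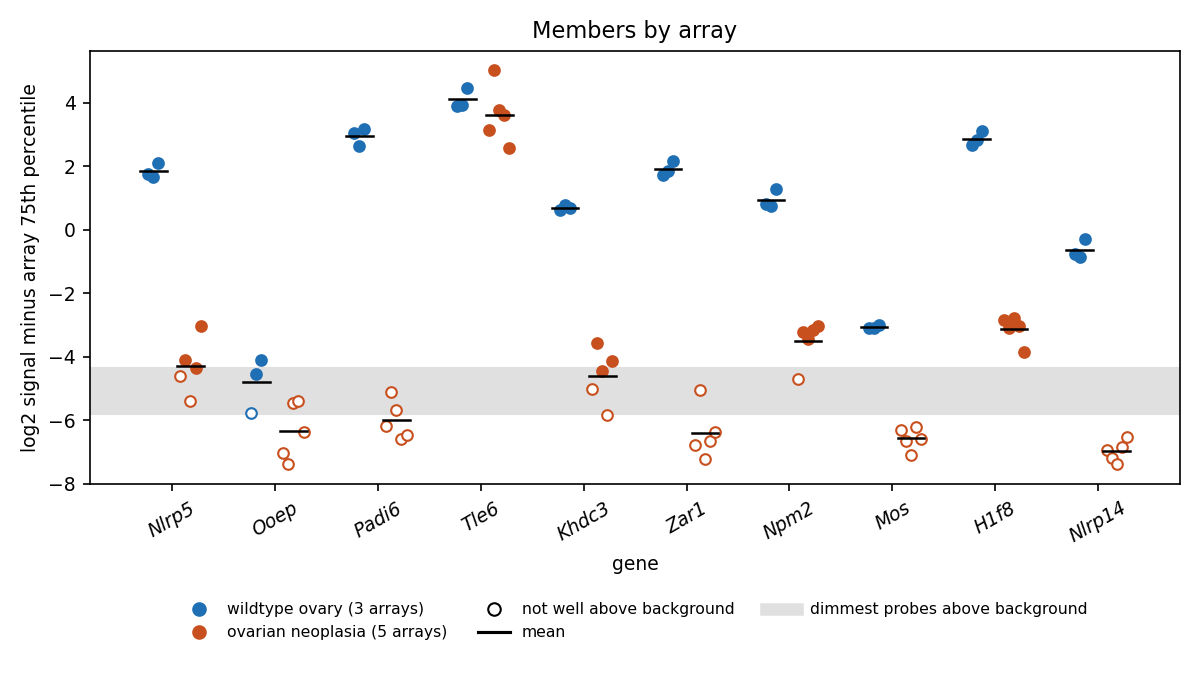
Log2 signal minus the array's 75th percentile (vertical axis) of the 10 members on each wildtype array (blue, 3 arrays) and neoplasia array (orange, 5 arrays), with group means as black lines. Open circles are not well above background, and the grey band spans, over the arrays, the dimmest probes that were, from -5.82 to -4.36; the groups overlap for Tle6 and Ooep alone.

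Among the subunits of the subcortical maternal complex, Nlrp5, Khdc3 and Tle6 could be tested, and the first 2 of these were lower. Nlrp5, also called Mater, encodes an NLR family protein that the complex needs to form. Its processed signal, linear and not scaled between arrays, was 1713, 1641 and 1972 on wildtype arrays 1 to 3 and 12.7, 25.2, 8.63, 16.6 and 43.4 on neoplasia 1 to 5. Every wildtype value was far above every neoplasia value, and 3 of the 5 neoplasia arrays, numbers 2, 4 and 5, were still well above background. On the scaled log2 values Nlrp5 fell by 6.13 ± 0.46 (SE), which is 70.2-fold (limma adjusted p = 9.44e-05). With values below the detection limit of an array raised to that limit, the log2 fold change was -6.10. Group means were 1.84 ± 0.22 (SD, n = 3) and -4.30 ± 0.85 (SD, n = 5). Neoplasia 5 held the highest of the 5 neoplasia values, -3.05, and neoplasia 3 the lowest, -5.40.

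Khdc3, or Filia, encodes a KH domain protein of the same complex. Signals of 792, 877 and 743 in wildtype stood against 9.57, 36.0, 16.5, 5.88 and 20.3 in neoplasia 1 to 5. Again no neoplasia array reached the wildtype range, while numbers 2, 3 and 5 were well above background. Its log2 fold change of -5.30 ± 0.46 (SE) makes it 39.4-fold lower (limma adjusted p = 0.000206). With values floored at the detection limit the log2 fold change was -5.01. The wildtype arrays lay within an SD of 0.07 of each other on that scale and the neoplasias within an SD of 0.87.

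Tle6, a relative of the Groucho transcriptional corepressors that serves as a subunit of the complex, was the exception among the tested members. Its signals were 7679.7, 7886 and 10253 in wildtype and 2739.9, 13899, 4924, 4134 and 2145 in neoplasia 1 to 5. All 8 arrays were well above background, and neoplasia 2 was brighter than every wildtype array while the other 4 neoplasias were dimmer than every one. The log2 fold change was -0.48 ± 0.50 (SE), with a 95% interval of -1.61 to 0.65 (limma adjusted p = 0.475). That interval does not show the level to be equal in the 2 groups. Without neoplasia 2 the value was -0.83 (limma adjusted p = 0.0966). The scaled neoplasia values ranged from 2.58 to 5.02, an SD of 0.91, against 0.32 in wildtype.

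Ooep, or Floped, a small KH domain-like protein of the complex, was close to the detection limit throughout. Its signals were 9.34, 21.9 and 27.0 in wildtype and 2.33, 2.56, 8.28, 7.96 and 4.35 in neoplasia. Only wildtype arrays 2 and 3 were well above background, and the scaled values of the groups overlapped. With no filter on dim probes Ooep did not pass (limma adjusted p = 0.0968), and an exact two-sided permutation test over the 56 splits of the arrays gave p = 0.0893, where the smallest possible value is 0.0179. A difference in Ooep was not detectable at this signal, and no fold is given because every neoplasia value is below detection.

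Padi6, the lattice protein, had the largest lower bound on its fold among the members. It belongs to the peptidylarginine deiminase family. Wildtype signals of 4259, 3225 and 4205 stood against 4.29, 12.4, 7.01, 3.49 and 4.03 in neoplasia 1 to 5. None of the 5 neoplasia arrays was well above background, so the neoplasia level is a bound. Where this is so, the fold is a lower bound, written as at least. The wildtype mean is set against a ceiling for the neoplasias, the mean over their arrays of the dimmest signal called well above background, or of Padi6 itself where that was brighter. Padi6 was at least 219.7-fold lower (limma adjusted p = 4.57e-06), with scaled means of 2.96 ± 0.28 (SD, n = 3) and -6.01 ± 0.61 (SD, n = 5). The neoplasia mean consists of values below detection.

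**Figure D2:**
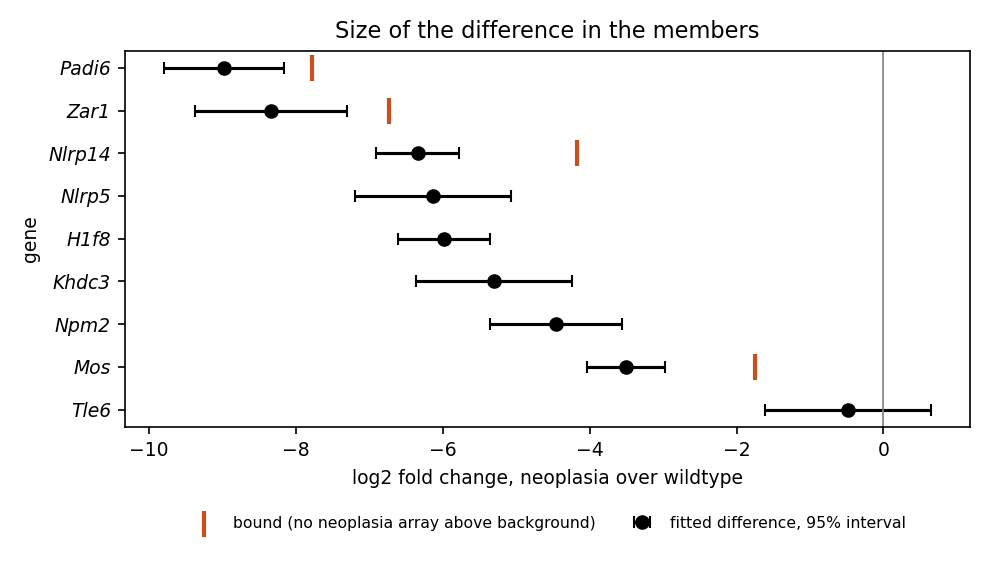
Log2 fold change, neoplasia over wildtype (horizontal axis), of the 9 tested members with the 95% interval of the limma fit (3 and 5 arrays). Orange bars mark the bound for the 4 members with no neoplasia array well above background; the interval of Tle6, -1.61 to 0.65, is the one that spans 0.

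The RNA of both chromatin proteins remained measurable in most neoplasias at a low level. H1f8, the linker histone of the oocyte, had signals of 3224, 3647 and 3959 in wildtype and 43.0, 49.6, 52.7, 41.3 and 24.9 in neoplasia 1 to 5. All 5 neoplasia arrays were well above background, so that its fold was measured on both sides. H1f8 fell by 5.98 ± 0.27 (SE) on the log2 scale, 63.3-fold (limma adjusted p = 8.25e-06). The neoplasia values had an SD of 0.43, and neoplasia 5 was the lowest at -3.85.

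Npm2, nucleoplasmin 2, is a histone chaperone of the egg. It gave 889, 858 and 1133 in wildtype and 11.9, 45.9, 33.1, 38.0 and 43.7 in neoplasia 1 to 5. Neoplasias 2 to 5 were well above background and close together, and neoplasia 1 was lower and not above background. Its RNA fell by 4.46 ± 0.39 (SE), a 21.95-fold difference (limma adjusted p = 0.000210).

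The remaining 3 members were above background on all wildtype arrays and on none of the neoplasia arrays. With Padi6 they make 4 tested members of that pattern, which 2.80% of all tested features showed. All 4 passed the filter only through the wildtype arrays, so their lower direction was largely set by it. Zar1, an RNA-binding protein that acts on stored maternal messages, had signals of 1704.5, 1871 and 2062 in wildtype and 2.81, 12.98, 2.41, 3.37 and 4.29 in the neoplasias. It was at least 106-fold lower (limma adjusted p = 1.82e-05), with scaled means of 1.92 ± 0.22 (SD, n = 3) and -6.42 ± 0.83 (SD, n = 5).

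Nlrp14, an NLR family gene of the germ line, gave 299, 286 and 375 in wildtype and 2.51, 2.95, 2.16, 2.95 and 3.86 in the neoplasias. The neoplasia values lay within an SD of 0.33 on the log2 scale, all below detection. Nlrp14 was at least 18.1-fold lower (limma adjusted p = 4.57e-06), from a mean of -0.64 ± 0.30 (SD, n = 3) to -6.98 ± 0.33 (SD, n = 5).

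Mos, the kinase that activates the MAP kinase cascade in the maturing oocyte and holds the egg at its second metaphase, was dim in wildtype as well, at 59.2, 60.3 and 57.5. Its neoplasia signals were 3.93, 4.27, 2.65, 4.53 and 3.73. The groups were well apart and each was tight, with SDs of 0.06 and 0.35. Because the wildtype signal lay near the detection limit, the bound is small: Mos was at least 3.35-fold lower (limma adjusted p = 4.89e-05), with scaled means of -3.07 and -6.57.

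Members at detectable levels did not share 1 neoplasia array as their highest. On the scaled values Khdc3 and Tle6 were highest in neoplasia 2, Nlrp5 and Npm2 in neoplasia 5, and H1f8 in neoplasia 3. Neoplasia 1 had the fewest members above background, H1f8 and Tle6. Its signal at the 75th percentile, 309, was the lowest of all arrays. The mean log2 signal of its spike-in controls was also the lowest, 8.05 against 9.13 to 9.85 on the others. It had 29711 probes above background, and neoplasia 4 had 29351. The arrays were spread over 2 slide rows, with neoplasia 1 to 4 in row 1 and neoplasia 5 beside the 3 wildtype arrays in row 2. Within row 2, which sets 1 neoplasia array against 3 wildtype arrays and assumes that it varies like they do, the 8 members were again lower (highest limma adjusted p = 0.00813, for Npm2). The 4 of them that were above background on neoplasia 5 had log2 fold changes there of -3.98 (Npm2), -4.84 (Khdc3), -4.88 (Nlrp5) and -6.71 (H1f8). Row 1 held no wildtype array and gives no value. In row 2 alone Tle6 was at -1.53 and past the threshold (limma adjusted p = 0.0413), so the count of lower members there was 9; 21.1% of all features passed in that row.

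Scaling moved the sizes but not the direction of the 8 falls. Quantile normalization, the authors' deposited log2 values, scaling on spike-in controls and normexp background correction all gave 8 lower members. With normexp, which adds an offset to every signal, the differences shrank, to -0.59 in Mos, -2.29 in Nlrp14 and -5.39 in Padi6. Tle6 ranged from -0.46 to -1.08 over these scalings.

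**Figure D3:**
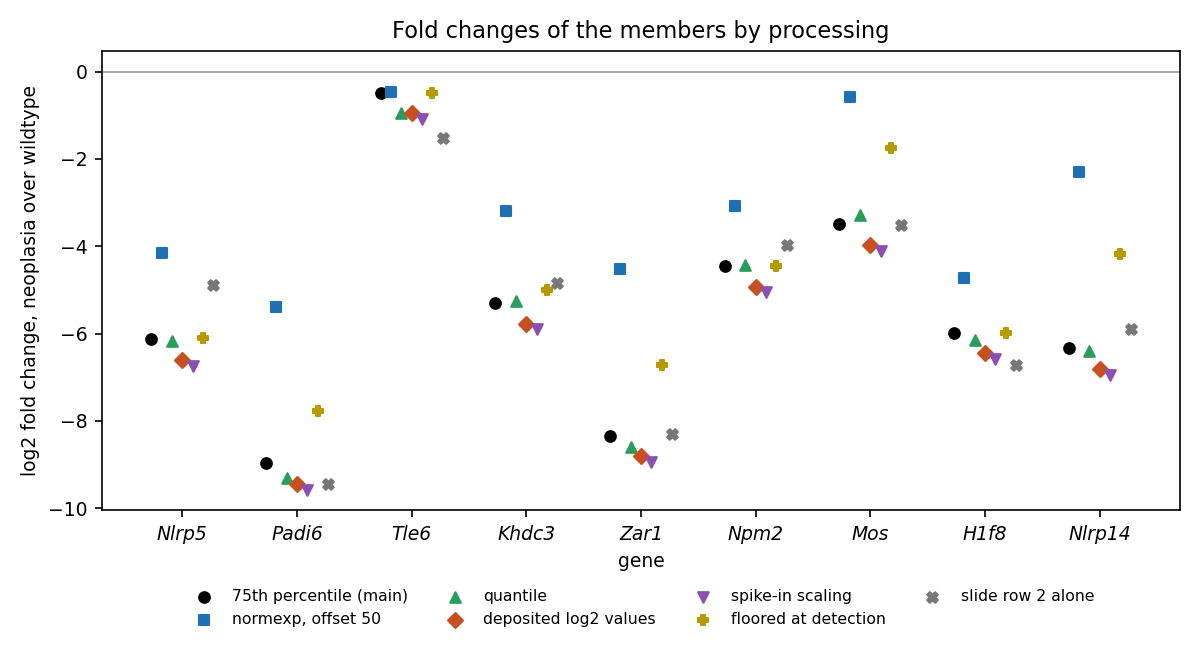
Log2 fold change, neoplasia over wildtype (vertical axis), of the 9 tested members under 7 ways of processing the same 8 arrays, or 4 arrays for slide row 2 alone. In 8 members every point lies below 0, and normexp gives the smallest differences, such as -0.59 for Mos; Tle6 lies between -0.46 and -1.53.

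Other maternal effect genes included many that were lower in the neoplasias. Of the 30 listed, 29 were tested, and 13 were lower, 2 higher and 14 not past the threshold in the limma fit, with a median log2 fold change of -1.02 against 0.13 over all features. Of the 13, 10 were above background on no neoplasia array, and these passed the filter only through the wildtype arrays. The fitted differences of these rest on values below detection and give no order, so bounds are given. Among them were Tcl1, a cofactor of the Akt kinase, at least 66.0-fold lower, Khdc1b, of the KH domain family to which Khdc3 is related, at least 53.4-fold, Bcl2l10, a Bcl2 family member of the oocyte, at least 25.7-fold, and Pabpn1l, an oocyte poly(A)-binding protein, at least 24.8-fold. Dppa5a, a KH domain protein, was above background on 2 neoplasia arrays and was 32.6-fold lower (limma adjusted p = 0.00154). Its log2 fold change was -5.03, and -4.75 with values floored at detection. Zar1l, the paralog of Zar1, was at least 12.6-fold lower and Dppa3, which protects the methylation of the maternal genome, at least 11.1-fold (limma adjusted p = 0.000437 for Dppa3). The 2 higher genes were Zfp36l2, an RNA-decay factor, by 1.01 ± 0.26 (SE) on the log2 scale (limma adjusted p = 0.0234), and Ago2, the slicing Argonaute, by 0.76 ± 0.24 (SE; limma adjusted p = 0.0434). Neither passed with quantile normalization, with spike-in scaling, with slide row or replicate number as a block or in the deposited values, and Ago2 was at -0.061 in the latter. Both calls ended whichever wildtype array was left out (limma adjusted p from 0.0717 to 0.0930 for Zfp36l2 and from 0.0868 to 0.160 for Ago2), and that of Ago2 also without neoplasia 1, 3, 4 or 5 (0.0501 to 0.0823). The 14 genes that did not pass included Smarca4, a chromatin remodelling ATPase, at 0.01 ± 0.28 (SE), Trim28, a corepressor, at -0.26 ± 0.19 (SE), Dnmt1, the maintenance DNA methyltransferase, at 0.33 ± 0.37 (SE), and Ctcf, a chromatin organiser, at -0.32 ± 0.16 (SE).

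The Nlrp family held both lower genes and genes that did not pass. Of 18 listed relatives of Nlrp5 and Nlrp14, 16 were on the array and 11 were tested, with 6 lower, 0 higher and 5 not past the threshold, and a median of -3.25. Nlrp4f and Nlrp2 are also in the list of other maternal effect genes, so Nlrp4f is counted as lower in both lists. All 6 tested genes of the Nlrp4 and Nlrp9 groups were lower, and none of them was above background on a neoplasia array. These 6 passed the filter only through the 3 wildtype arrays, so their shared direction was largely set by it. Nlrp4f was at least 20.4-fold lower, Nlrp4b at least 10.9-fold, Nlrp4a at least 6.16-fold, Nlrp4e at least 3.31-fold, Nlrp9a at least 3.15-fold and Nlrp9c at least 3.07-fold (limma adjusted p from 5.04e-06 to 0.00756). With normexp Nlrp9a and Nlrp9c did not pass (limma adjusted p = 0.0654 and 0.106). Nlrp4e was at -1.30 and did not pass where slide row was a block (0.0914), nor within row 2 (0.0705). Genes of the Nlrp4 group are close copies, and probe sequences were not used here, so signal from 1 copy on the probe of another cannot be told apart. Members of the family that act in innate immunity did not pass: Nlrp3, the inflammasome sensor, stood at 1.13 ± 0.40 (SE; limma adjusted p = 0.0652), Nlrp1b at 1.28 ± 0.47 (SE; 0.0686), Nlrp1a at 0.38 ± 0.41 (SE; 0.495) and Nlrp10 at -1.14 ± 0.76 (SE; 0.270), and the mitochondrial Nlrx1 at 0.28 ± 0.27 (SE; 0.446). Quantile normalization and normexp each called 2 genes of the family higher. Nlrp2 was above background on the 3 wildtype and on no neoplasia array but had a spot marked as an outlier and was left out. Nlrp4c and Nlrp9b were above background on 2 arrays, both wildtype.

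Relatives of the members in the Padi, Tle, Npm and linker histone families mostly did not pass the test. How widely each of them is expressed was not examined. Of 20 listed, 17 were tested, and 2 were lower, 0 higher and 15 not past the threshold, with a median of 0.13, the same as over all features. Tle2, a Groucho corepressor, fell by 2.55 ± 0.54 (SE) on the log2 scale (limma adjusted p = 0.0116), and the call ended without wildtype 1 (adjusted p = 0.0512), with the replicate number as a block (0.0573) and with slide row as a block (0.0685). H1f10, a replication-independent linker histone, fell by 3.40 ± 0.37 (SE; limma adjusted p = 0.000621), with 3 of 5 neoplasia arrays above background. The other relatives of Tle6 were at -0.38 (Tle1), 0.53 (Tle3), 0.22 (Tle4) and 0.45 (Tle5). Those of Padi6 were at -1.35 (Padi1), -0.50 (Padi2), -0.71 (Padi3) and 0.54 (Padi4), the last 2 above background on 3 arrays each. Among the linker histones related to H1f8, the differences were 0.18 (H1f0), -0.47 (H1f1), 0.72 (H1f2), 0.31 (H1f4), -0.55 (H1f5) and 0.43 (H1f6). Npm1, the widely expressed relative of Npm2, was at 0.13 ± 0.21 (SE). With quantile normalization it was at -0.60 and passed as lower (limma adjusted p = 0.0436).

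Mos acts upstream of a general kinase cascade, most of which did not pass the test. Of 20 listed kinases and regulators of meiotic maturation, 18 were tested, with 2 lower, 2 higher and 14 not past the threshold, and a median of 0.18. Wee2, the oocyte inhibitor kinase of Cdk1, was above background on no neoplasia array and at least 1.32-fold lower (limma adjusted p = 0.000327). The call of Wee2 ended with normexp (adjusted p = 0.977) and with values floored at detection (0.224). Rps6ka2, a ribosomal S6 kinase, fell by 2.49 ± 0.57 (SE; limma adjusted p = 0.0154), with an adjusted p of 0.0644 without wildtype 1 and 0.0590 without wildtype 3. It was at -1.43 with slide row as a block (0.331) and in slide row 2 alone (0.105). Map2k1, the MAP kinase kinase that Mos phosphorylates, was higher by 1.29 ± 0.33 (SE; limma adjusted p = 0.0234) and Rps6ka3 by 0.71 ± 0.19 (SE; limma adjusted p = 0.0279). Leaving out any 1 wildtype array ended both calls, with adjusted p from 0.0529 to 0.0898 for Map2k1 and from 0.0506 to 0.116 for Rps6ka3, whose adjusted p was 0.0553 without neoplasia 4. Both calls also ended with the replicate number as a block, with slide row as a block, with spike-in scaling and in the deposited values, where Map2k1 was at 0.82 and Rps6ka3 at 0.051; with spike-in scaling they were at 0.69 and 0.11. Mapk3, a MAP kinase of the cascade, stood at 0.55 ± 0.25 (SE), and Cdk1, the kinase that Wee2 inhibits, at 0.60 ± 0.50 (SE).

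**Figure D4:**
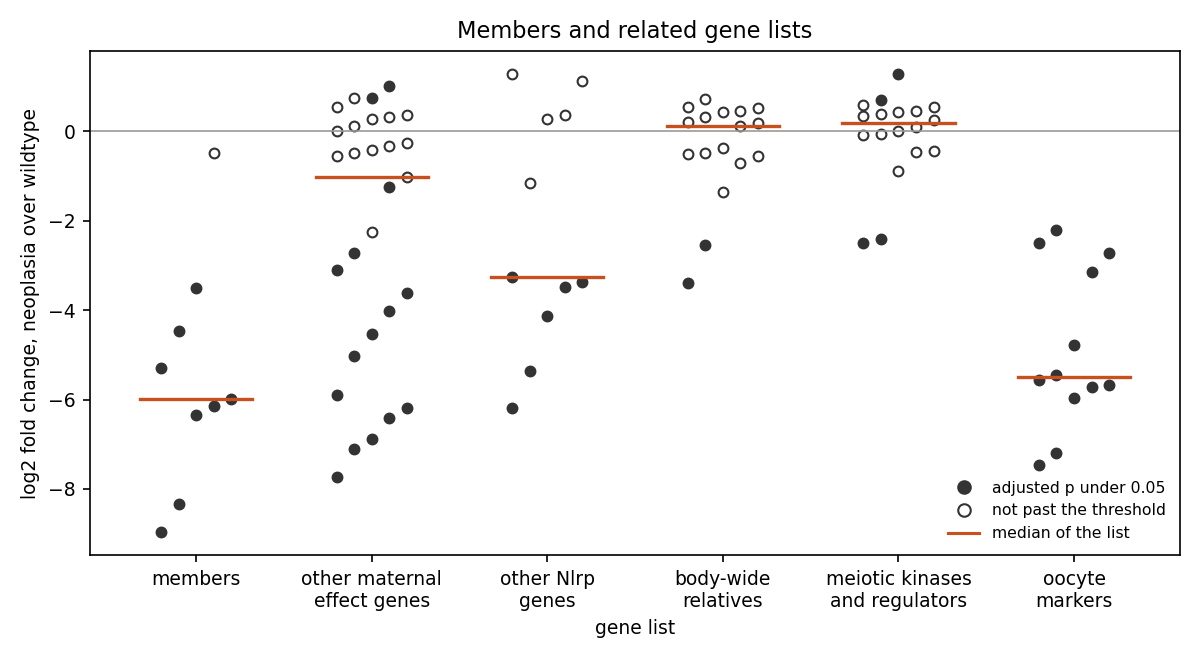
Log2 fold change, neoplasia over wildtype (vertical axis), of each tested gene in the members, 4 related gene lists and the oocyte markers, with list medians in orange. Filled points passed an adjusted p under 0.05 (limma, 3 and 5 arrays). Nlrp4f is drawn both among the other maternal effect genes and among the other Nlrp genes. In the members 8 of 9 and in the oocyte markers 12 of 12 are filled and below 0. The list labelled body-wide relatives, of Padi, Tle, Npm and linker histone genes, centres on 0.13.

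Markers of several cell types moved with the members, and their part in these results was not tested. Of 12 oocyte markers outside the members, 12 were lower, 7 of them above background on no neoplasia array, and their summed scaled signal ranged from 18.5 to 25.8 in wildtype and from 0.341 to 0.657 in the neoplasias. Zp1 and Zp3, of the zona pellucida, Oosp1, a secreted oocyte protein, and Bmp15, an oocyte growth factor, were among them, with Zp1 at least 66.6-fold lower and Bmp15 at least 12.3-fold. Zp3 fell by 5.96 ± 0.31 (SE) and Oosp1 fell by 7.20 ± 0.49 (SE; limma adjusted p = 5.85e-05), the latter with 1 of 5 neoplasia arrays above background and at -5.49 with values floored at detection. Gdf9, another oocyte growth factor, was above background on all 5 neoplasia arrays, as H1f8 was, and was 43.7-fold lower. Of 10 granulosa markers 8 were lower and 2 did not pass, with a list median of -5.52. Their summed signals were 161 to 227 in wildtype and 43.3 to 73.1 in the neoplasias. Much of the neoplasia sum came from Foxl2, which did not pass, at 0.43 ± 0.19 (SE; limma adjusted p = 0.118). Its scaled log2 mean was 5.43 in the neoplasias. Of 8 luteal markers 8 were lower, with sums of 429 to 783 in wildtype and 52.2 to 147 in the neoplasias. Of 5 theca markers 4 were lower. Of 7 macrophage markers 7 were higher, with sums of 30.6 to 36.5 in wildtype and 90.9 to 179 in the neoplasias, as were 5 of 5 erythrocyte markers, with sums of 9.06 to 27.1 and 377 to 1717. Of 7 epithelial markers 2 were higher and 2 lower, with sums of 12.2 to 67.2 in wildtype and 174 to 765 in the neoplasias. Such sums are weighted to the brightest markers. Of 6 endothelial markers 1 was higher, with sums of 7.39 to 8.97 and 12.4 to 25.5. None of 7 fibroblast and smooth muscle markers passed, with a median of -2.20 and overlapping sums of 263 to 387 and 29.0 to 565. Signal at the 75th percentile, the scale of each array, was 462 to 515 in wildtype and 309 to 429 in the neoplasias.

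Genes outside these lists whose values, floored at the detection limit, followed the mean of the members most closely over the 8 arrays were Frem1, Elovl2, C86187, Fbxw15 and Ezhip, each with a Pearson r of 0.998 or 0.999. The 8 points share the difference between the groups, and 62 of the 15319 genes compared had an r above 0.99, so the order among them is only descriptive. Fbxw15, an F-box protein gene, had signal above background on every wildtype array and no neoplasia array, and its level was at least 66.1-fold lower. Frem1, an extracellular matrix protein gene, fell by 6.92 ± 0.58 (SE) and Elovl2, an elongase of long-chain fatty acids, fell by 4.29 ± 0.61 (SE) on the log2 scale, with 1 and 2 neoplasia arrays above background. C86187 fell by 5.49 ± 0.27 (SE), with 1 such array, and Ezhip, an inhibitor of the Polycomb methyltransferase, fell by 7.55 ± 0.56 (SE), with 2 (limma adjusted p = 1.22e-05 for C86187 and 8.37e-05 for Ezhip). These 4 falls rest largely on neoplasia values below detection, and with values floored there they were -5.66 (Frem1), -2.97 (Elovl2), -5.07 (C86187) and -6.59 (Ezhip).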

How the data were processed

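RNA of wildtype ovary (3 arrays) and ovarian neoplasia (5 arrays) was measured on one-colour Agilent arrays of 55681 distinct probes. Per the file headers, Agilent Feature Extraction 11.0.1.1 made the deposited scanner files, which hold linear, background-subtracted intensity on an mm9 grid. The deposited value table holds log2 of the mean intensity over all spots given the same target name, not scaled between arrays, tested against the scanner files. Where several probes share a target name, results in the deposited values differ from the main ones in more than scaling. Partek is named in the submitters' processing notes, with no role given.

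Values were log2 processed intensity minus each array's 75th percentile. Control spots and spots with outlier flags were left out, spots of a probe were averaged, and the probe with the highest mean stood for a gene. Accessions were matched to RefSeq (GRCm38.p6), which named 26582 probes (47.7%). The comparison used limma 3.58.1 and R 4.3.3 (lmFit and eBayes, two-sided, 6 residual degrees of freedom). Adjusted p-values follow Benjamini-Hochberg, at 0.05, over the 25170 features well above background on at least 3 arrays. The procedure was tested on simulated data.

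Named genes are the 10 members, up to 4 called genes of each related list and of the oocyte list by size of change, all measured relatives and the 5 genes most like the members; Zar1l, Dppa3, Dppa5a, Gdf9, Nlrp2 and genes given as not past the threshold were added after their values were seen. Genes of the other marker lists are given as counts, apart from Foxl2, which was named after its values were seen. The members and lists were chosen with earlier results of these data known. The result of 1 gene of the meiotic list is not reported here. Normexp used median foreground and background intensity. The alternatives tried are in the closing section.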

Additional observations from a re-analysis of the deposited data

Results flagged for a closer look

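Npm2 in neoplasia 1 stood apart from the other neoplasias. Its scaled log2 value there was -4.70, and the nearest of the other 4 arrays was at -3.46, a gap of 0.746 of the group's whole range, above Dixon's 95% critical value of 0.71 for 5 samples. The array was not well above background for Npm2, so its exact level is not measured. Neoplasia 1 also had the lowest signal at the 75th percentile, 309, and the lowest spike-in mean of all arrays. About 1 in 20 groups passes this value by chance.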

How the results depend on the processing

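The 8 lower members were lower and past the threshold in every alternative in which they were tested, 21 settings each for 7 members and 22 for H1f8, with a highest limma adjusted p of 0.0142 (Mos, normexp). Leaving out 1 array at a time gave 8 lower members each time. Requiring signal above background on all 8 arrays left 2 members, H1f8 and Tle6, of which 1 was lower, because fewer genes were tested. Tle6 passed only in slide row 2 alone.

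The main counts of lower and higher genes were 13 and 2 for other maternal effect genes and 6 and 0 for the Nlrp family. They were 2 and 0 for the Padi, Tle, Npm and linker histone relatives and 2 and 2 for the meiotic list. In that order, the alternatives moved them as follows. With the all-array filter the lower counts were 2, 0, 1 and 0. The deposited log2 values gave 20 lower and 0 higher other maternal effect genes, and 4 lower and 0 higher meiotic genes. Spike-in scaling gave 0 higher in both of those lists. The median of all features was 0.13 in the main setting, 0.03 with quantile normalization, 0.21 with normexp, -0.35 in the deposited values and -0.47 with spike-in scaling, and the split of all features into higher and lower calls changed from 4232 and 3403 to 3905 and 3848, 5860 and 2986, 1498 and 5921, and 743 and 4142. Normexp gave 4 higher other maternal effect genes, 2 higher and 4 lower Nlrp genes and 1 lower meiotic gene. Quantile normalization gave 1 and 2 higher in the first 2 lists. No filter on dim probes, and averaging all probes for a gene, each gave 1 higher other maternal effect gene, and the latter 1 higher meiotic gene. Flooring at detection gave 1 lower meiotic gene. Array weights gave 5, 1, 2 and 4 higher. At a threshold of 0.01 there were 0 higher in the maternal and meiotic lists and 1 lower in each of the last 2. With slide row as a block 0 were higher in the maternal and meiotic lists, 1 relative was higher, and 1 was lower in each of the last 2 lists; slide row 2 alone gave 4 lower and 1 higher relatives. Lower Nlrp genes numbered 5 in both slide row settings and in the deposited values. Leaving out 1 array gave 12 to 15 lower and 0 to 3 higher other maternal effect genes, 6 to 6 and 0 to 1 for Nlrp genes, 1 to 3 and 0 to 1 for relatives, and 1 to 2 and 0 to 3 for meiotic genes; the higher counts of the maternal and meiotic lists were 0 whichever of the 3 wildtype arrays was left out.

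The replicate numbers of the titles did not pair the samples: deviations of same-numbered arrays correlated at -0.054, -0.031 and -0.002. With the replicate number as a block, over 3 pairs, 8 members were lower, 1 relative was lower, 1 Nlrp gene was higher and 0 genes were higher in the maternal and meiotic lists.

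The sign of the difference changed under at least 1 alternative in 17 of the 65 named genes compared, none of them a member. Of these, 14 were called in neither setting, and 3 were called in the main setting or in the alternative; the cause was not tested. Ago2 was at -0.061 in the deposited values and did not pass there. Npm1 passed as lower with quantile normalization, at -0.60 (limma adjusted p = 0.0436). Zfp57, among the lower other maternal effect genes at -1.25 (limma adjusted p = 0.0209), passed as higher with normexp, at 0.68 (0.0157). Its call ended with probes averaged, at -0.09 (0.816), and whichever wildtype array was left out (0.0630 to 0.0762). Members with no neoplasia array above background have bounds only, and Ooep could not be resolved.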
